A study of Mus musculus with 24 samples.

Results

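The genes described here encode the small leucine-rich proteoglycans of fibroblast matrix and the large proteoglycan versican: Dcn, Lum, Bgn, Vcan, Ogn, Fmod, Prelp, Aspn, Kera and Omd. They were taken by name from the mm9 annotation, and all 10 were found among 22225 protein-coding genes. For each gene the body was extended by 10 kb on each side, and histone marks and Prrx1 binding were read in that window in 17 deposited peak lists.

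The series maps chromatin by ChIP-seq in 3 types of immortalised mouse fibroblasts with and without the homeobox factor Prrx1. H3K27ac, a mark of active enhancers and promoters, and H3K4me3, a mark of promoters, were each listed in 7 groups with 1 library per group, and Prrx1 itself was listed in the 3 wild-type groups. The mouse embryonic fibroblasts (MEF) came from C57BL/6 embryos of day 10 to 13, as a wild type (WT), a line labelled KI, read here as the mutant Prrx1 allele 129S-Prrx1tm1Jfm/Mmmh (a lacZ insertion in the homeodomain, backcrossed to C57BL/6 by the study's methods), and a CRISPR line labelled SG, which carries a guide RNA against Prrx1. The tumour fibroblasts (MMTV-CAF) came from mammary tumours of MMTV-PyMT mice on the FVB/NJ strain, and the wound-healing fibroblasts from C57BL/6 back skin at day 10 after wounding, each as a WT line with a non-targeting guide and an SG line. All lines carry the HPV E6/E7 genes and were grown in serum, so the WT controls carry them too. Whether the MEF WT line carries a non-targeting guide, how many animals stand behind a line and whether a line is 1 clone are not given in the sources used here. Fibroblast type and mouse strain cannot be told apart for MMTV-CAF, and both MEF comparisons use the same WT library.

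Small leucine-rich proteoglycans are secreted proteins with a curved core of leucine-rich repeats that sits on collagen fibrils, and many of them carry chondroitin, dermatan or keratan sulphate chains. They set fibril diameter and spacing in skin, tendon, bone and cornea, and several bind growth factors of the TGF-beta family. Versican belongs to another family, the hyalectans, which bind hyaluronan and form a loose, hydrated matrix that is laid down in embryos, healing wounds and tumour stroma.

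The lists held 29325 to 61603 H3K27ac summits, 13125 to 29166 H3K4me3 regions and 3048 to 8000 Prrx1 summits. A summit is the 1-base peak of a called enrichment, and its strength here is the -log10 p that the peak caller gave it against input. The MEF KI lists were the shortest of their marks and its H3K27ac list the weakest (median -log10 p 11.9, against 15.2 to 21.2 in the others). The lists give no read counts, so depth is unknown, and there is no replicate, so differences below are described with no test and no error. The libraries are bulk, so a mark in fewer cells and a weaker mark per cell cannot be told apart. By library, H3K27ac lay near 9 or 10 of 10 fibroblast markers, 3 to 5 of 8 epithelial, 1 to 3 of 6 immune and 1 to 3 of 4 endothelial ones, and H3K4me3 over a start of 6 to 10, 0 or 1, 0, and 0 or 1 of them. Of the defining genes of other cell types, Epcam, Krt5, Ptprc and Cd3e had neither mark in any library, while Cdh1 had both in MEF WT, MEF SG and the wound-healing libraries, and Kdr had H3K4me3 in all but MMTV-CAF SG. Cldn4 and Esrp1 (epithelial), Cd68 (immune) and Pecam1 (endothelial) had H3K27ac in every library and H3K4me3 over a start in none. Prrx1 kept H3K4me3 over its own start in every library (4558 to 15484 bp), which does not check the deletion, since the marks do not measure the protein.

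A Prrx1 summit lay in the windows of 3 of 10 genes in MEF (7.06% of all genes had one), of 2 of 10 in MMTV-CAF (22.1%) and of 1 of 10 in the wound-healing line (16.8%). Because the Aspn and Omd windows overlap on chromosome 13 and share a MEF summit, these were 5 summits in all. Prrx1 is a homeodomain protein, a class that recognises the letters TAAT, and the palindrome TAATTA lay within 100 bp of 69.1% of all MEF Prrx1 summits, of 35.5% of those from MMTV-CAF and of 41.9% of the wound-healing ones. Windows of the same length 2 kb to either side held it in 6.91%, 5.84% and 6.16%. The shorter core TAAT, read on both strands, is inside TAATTA and is far more common: 96.2%, 86.1% and 82.9% of the summit windows held it, and 74.4%, 68.5% and 68.8% of the windows beside them.

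The start of Dcn was the place where summits of 2 fibroblast types met. Dcn encodes decorin, which binds collagen fibrils and TGF-beta, and lies at chr10:96942245-96980777 on the plus strand with 2 annotated starts. The MEF summit lay 73 bp upstream of the first start (-log10 p 8.93, rank 1341 of 3048), and the wound-healing summit 72 bp downstream of it, in the first exon (4.47, rank 5187 of 5698). The wound-healing value is weaker than the p threshold given in the study's methods, as are other summits of that list, which holds values down to 3.05. Shown is the only TAATTA in the wound-healing window, with 10 bases on each side, at chr10:96942363-96942388 of mm9, plus strand. Capitals mark every TAAT or ATTA, here and in the sequences that follow.
Dcn first exon: tagttagtgtTAATTAcatcgcagct

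The other summits inside the windows each belonged to 1 type. Aspn encodes asporin, a relative of decorin with a run of aspartates, at chr13:49639812-49662926 on the plus strand within the longer gene Cenpp. An MMTV-CAF summit sat 17 bp past its start (-log10 p 12.4, rank 927 of 8000), the strongest inside any of the windows. A MEF summit (9.71, rank 1136 of 3048) lay 31.2 kb past the Aspn start and 7.10 kb before that of Omd, and it had the densest run of cores, with 4 TAATTA. Vcan, which encodes versican, lies at chr13:89794915-89882117 on the minus strand, and an MMTV-CAF summit sat 0.580 kb inside it (5.80, rank 5264 of 8000), within the H3K4me3 region found in all 7 libraries. The Aspn stretch is the 100 bases before the start at chr13:49639712-49639811, and the others run 100 bases to each side of the summit, at chr13:49670939-49671139 and chr13:89881437-89881637, all on the plus strand of mm9. The Aspn summit lies past the stretch shown, and the 100 bases to each side of that summit held 3 TAAT cores and no TAATTA. The cores nearest to it lie past the start and are not shown.
Aspn promoter: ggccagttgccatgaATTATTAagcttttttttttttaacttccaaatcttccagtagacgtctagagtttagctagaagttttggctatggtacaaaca
Between Aspn and Omd: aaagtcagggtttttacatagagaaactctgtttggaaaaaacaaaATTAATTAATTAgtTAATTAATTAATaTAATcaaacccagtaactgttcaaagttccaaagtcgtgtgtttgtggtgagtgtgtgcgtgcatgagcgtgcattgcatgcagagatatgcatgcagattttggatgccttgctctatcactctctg
Vcan intron: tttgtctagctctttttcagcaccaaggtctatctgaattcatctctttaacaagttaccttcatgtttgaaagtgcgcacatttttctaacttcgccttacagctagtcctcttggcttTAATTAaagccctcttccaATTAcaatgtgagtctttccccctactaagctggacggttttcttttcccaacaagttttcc
None of these 3 summits had an H3K27ac summit within 500 bp in any of the 7 libraries. The MEF summit at Dcn had 1 in MEF WT and 2 each in MEF SG and MMTV-CAF WT, and no H3K27ac summit that close in the other 4 libraries.

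The strongest Prrx1 binding close to these genes fell just outside the 10 kb limit, and these sites were singled out after their values were seen. One lay between Kera and Epyc, 11.6 kb past the end of Kera and 1.58 to 1.60 kb beyond its window, and it was called in all 3 types. Its -log10 p was 39.9 in MEF, at rank 39 of 3048, while MMTV-CAF gave 66.6, at rank 12 of 8000, and the wound-healing line 18.7, at rank 185 of 5698. An H3K27ac summit lay within 500 bp of it in MEF WT and not in any of the other libraries. The other lay 15.5 to 15.6 kb before the first start of Bgn and 5.54 to 5.55 kb beyond its window, with a -log10 p of 12.6 in MEF, while MMTV-CAF gave 24.1 and the wound-healing line 10.4. It had H3K27ac summits within 500 bp in all 7 libraries. The 201 bases around the MMTV-CAF summits are shown for comparison with those above, at chr10:97087823-97088023 and chrX:70713293-70713493 of mm9, plus strand.
Kera-Epyc: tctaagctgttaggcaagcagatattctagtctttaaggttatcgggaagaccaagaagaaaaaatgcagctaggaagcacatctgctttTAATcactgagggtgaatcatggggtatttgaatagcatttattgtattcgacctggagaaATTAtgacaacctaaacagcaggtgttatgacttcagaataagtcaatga
Upstream of Bgn: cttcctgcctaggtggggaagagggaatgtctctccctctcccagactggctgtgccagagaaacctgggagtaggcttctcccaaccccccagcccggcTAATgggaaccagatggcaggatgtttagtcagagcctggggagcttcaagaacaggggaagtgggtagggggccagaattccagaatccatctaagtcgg
Neither window held TAATTA, and they held 2 cores and 1 core of TAAT. With windows of 50 kb on each side, 16 of 30 pairs of a gene and a fibroblast type had a Prrx1 summit, against 6 of 30 with 10 kb. Windows that wide held one at 15.0% of all genes in MEF, 39.9% for MMTV-CAF and 32.2% for the wound-healing line.

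**Figure D1:**
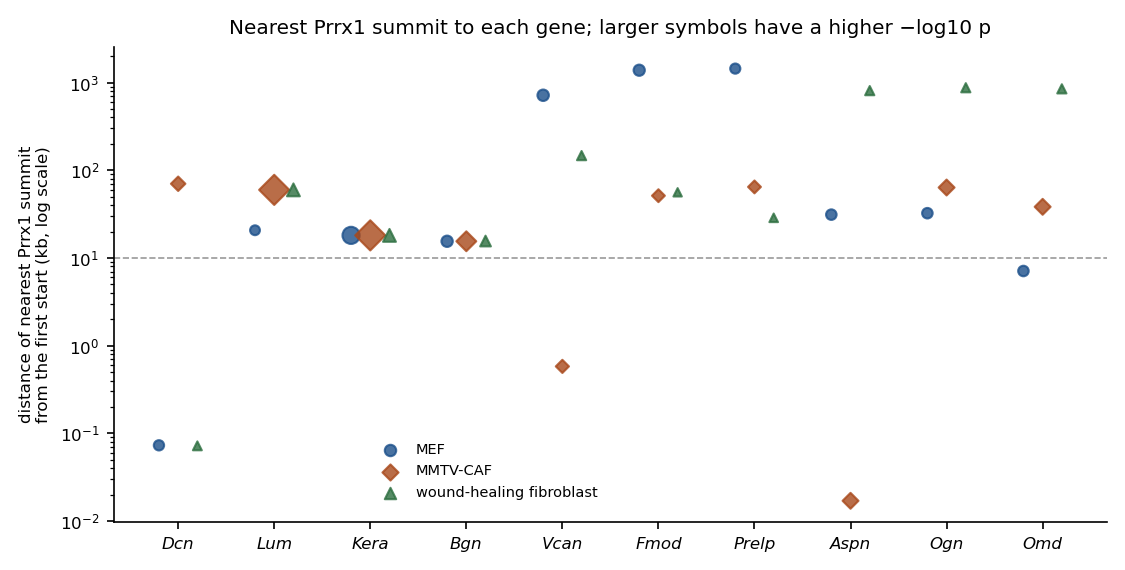
Distance in kb, on a log axis, from the first start of each gene to the nearest Prrx1 summit in MEF (circles), MMTV-CAF (diamonds) and wound-healing fibroblasts (triangles), with larger symbols for a higher -log10 p and a dashed line at 10 kb. Within each type the largest symbol belongs to the site between Kera and Epyc, 18.1 kb from the Kera start in all 3 types. The same site is the nearest to Lum, at 59.8 kb, in MMTV-CAF and wound-healing fibroblasts. The closest summits, at Dcn, Aspn and Vcan, have smaller symbols.

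Few of the 10 genes had H3K4me3 over a start outside MMTV-CAF. For MEF the counts were 3 in WT (53.2% of all genes), 2 in KI (41.5%) and 3 in SG (51.5%). MMTV-CAF had 6 in WT (52.5%) and 6 in SG (53.0%), and the wound-healing line had 3 in WT (54.8%) and 2 in SG (55.4%). Vcan had it in all 7 libraries, and Lum, Fmod, Aspn and Kera in none. A gene counts here when a region covers an annotated start base, and some near misses are named with the genes below: with regions up to 1 kb away, 31 of 70 pairs of a gene and a library were marked in place of 25.

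At the start of Dcn the H3K4me3 region was 1956 bp wide in MEF WT, absent in MEF KI and 1405 bp in MEF SG. MMTV-CAF had 3894 bp in WT and 8937 bp in SG, and both wound-healing libraries had none. The MMTV-CAF SG region was thus the widest at any of the 10 genes, and the wound-healing fibroblasts, which had a weak Prrx1 summit there, had no H3K4me3 region anywhere in the window. The fold enrichment over input, the other value given for a region, was 5.71 (WT) and 3.20 (SG) for MEF, and 3.28 (WT) and 5.85 (SG) for MMTV-CAF. The MEF regions covered the first of the 2 Dcn starts, and the MMTV-CAF regions covered both.

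Bgn encodes biglycan, the closest relative of decorin, and lies at chrX:70728941-70741272 on the plus strand with 6 annotated starts. Its region was 3721 bp in MEF WT and 2970 bp in MEF SG. In MEF KI a region of 2382 bp began 12 bp past the nearest start, so it counts as absent only by that margin. MMTV-CAF had 7845 bp in WT against 5338 bp in SG, and the wound-healing line 4522 bp in WT against 2502 bp in SG, so that each SG region was narrower than its WT. Fold enrichment ran from 4.93 to 7.39 in the 6 libraries with a region over a start. The sex of the lines is not given, which bears on a gene on the X chromosome.

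The Vcan region was the only one of the set over a start in every library. For MEF it measured 4013 bp (WT), 3895 bp (KI) and 4087 bp (SG), for MMTV-CAF 4607 bp (WT) and 5117 bp (SG), and for the wound-healing line 3575 bp (WT) and 3788 bp (SG). Fold enrichment was lowest in MEF KI (4.57) and highest in the MMTV-CAF libraries (11.1 in WT). All 7 regions covered the same number of starts, 7 of the 10 annotated.

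Prelp and Omd had H3K4me3 over a start in the MMTV-CAF libraries only, and Ogn in those and 2 more. Prelp, at chr1:135806881-135817991 on the minus strand, encodes a proteoglycan that tethers basement membranes to collagen, and its start was covered by 2131 bp in MMTV-CAF WT and 6372 bp in MMTV-CAF SG and by nothing in the other 5 libraries. Omd, at chr13:49678135-49687978, encodes osteomodulin of mineralised matrix, and had 1024 bp in MMTV-CAF WT, 2173 bp in the SG line and no covered start elsewhere. In MEF WT, MEF SG and wound-healing SG, narrow regions of 242, 320 and 450 bp lay 616, 527 and 368 bp away from the Omd start.

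Ogn, at chr13:49703440-49719869, encodes osteoglycin, also called mimecan. Its region measured 1674 bp in MEF KI, 498 bp in wound-healing WT, and 2146 bp (WT) and 3269 bp (SG) for MMTV-CAF. A region of 1032 bp lay 258 bp past the Ogn start in MEF WT and one of 1136 bp lay 86 bp past it in wound-healing SG, so that MEF SG was the only library with no H3K4me3 region in the Ogn window. Ogn was the 1 gene of the set with H3K4me3 over a start in MEF KI and not in MEF SG.

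**Figure D2:**
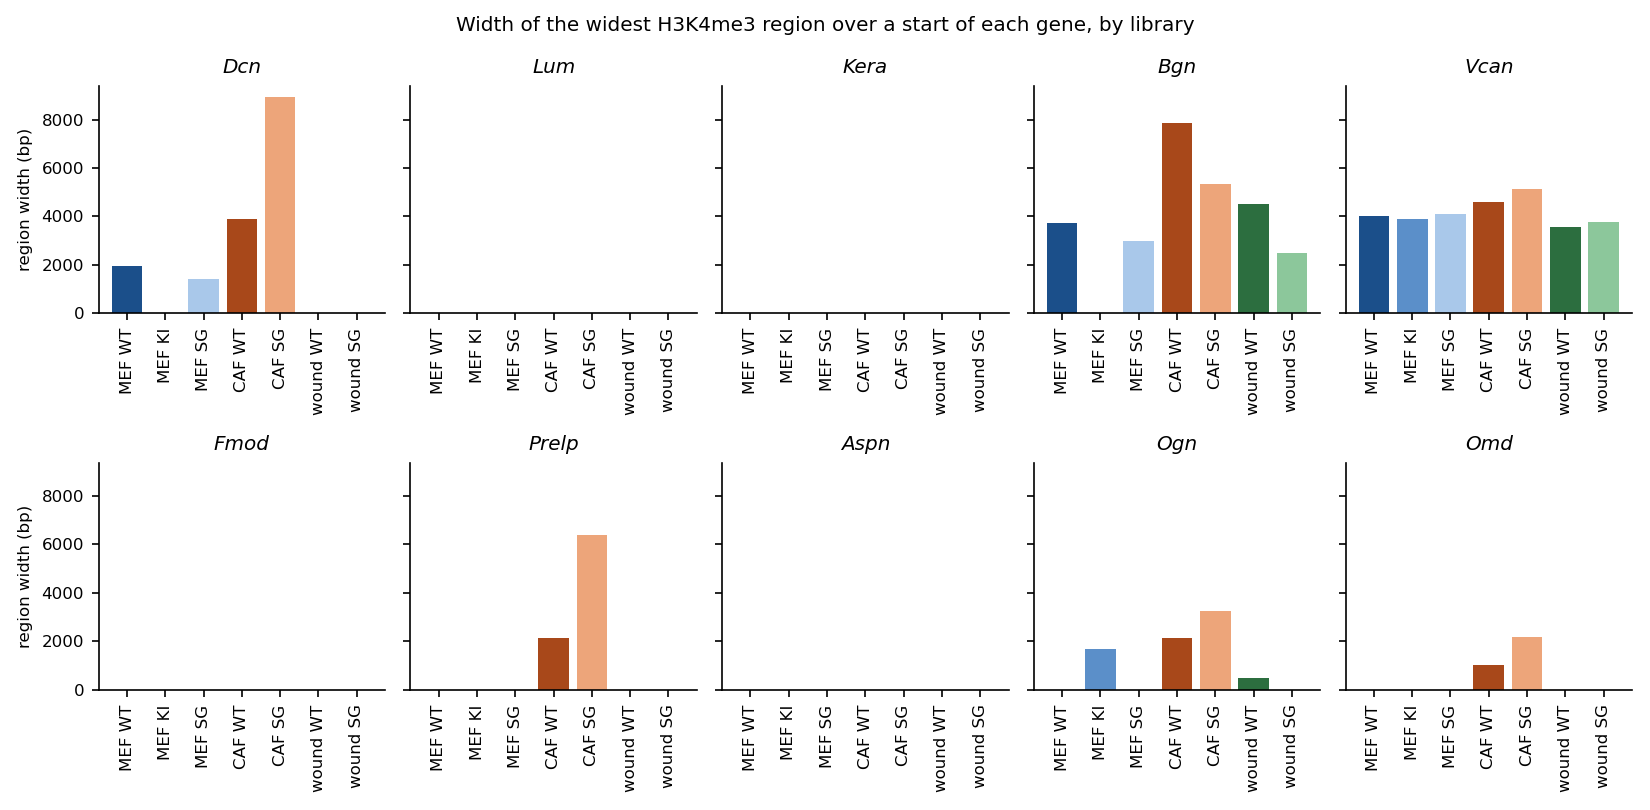
Width in bp of the widest H3K4me3 region over an annotated start of each gene, with 1 bar per library (1 library per group, so no error bars). Vcan stays between 3575 and 5117 bp in all 7 libraries, Dcn runs from none to 8937 bp, and Lum, Kera, Fmod and Aspn have no bar.

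H3K27ac reached more of the 10 windows. For MEF, 8 held a summit in WT (61.6% of all genes), 4 in KI (52.4%) and 5 in SG (63.0%). MMTV-CAF had 9 in WT (62.0%) and 9 in SG (64.3%), and the wound-healing line 4 in WT (58.3%) and 6 in SG (63.0%). Only Bgn, Vcan and Omd had a summit in every library, and Kera, the corneal proteoglycan keratocan at chr10:97069817-97076322, had none in any. Strength is given below as the sum of -log10 p over a window, which grows with the length of the window and with sequencing depth, and so also as the percentile of that sum among all genes of the same library.

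The Dcn window held 7 summits with a sum of 121 in MEF WT, none in MEF KI and 4 with 48.2 in MEF SG. For MMTV-CAF it held 8 with 147 (WT) and 9 with 193 (SG), and for the wound-healing line none (WT) and 1 with 10.5 (SG). Dcn thus stood at the 83.0 percentile of all genes in MEF WT and at 47.6 in MEF SG, and at 82.2 (WT) and 85.8 (SG) among MMTV-CAF. The summits fell into one group around the 2 starts and a second one 36.6 to 39.3 kb downstream, at the 3' end of the gene. The single wound-healing SG summit belonged to the second group, at a site also called in MEF WT, MEF SG and both MMTV-CAF libraries.

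The Bgn window held the highest sum of the set in every library. For MEF it was 256 over 5 summits (WT), 112 over 7 (KI) and 212 over 5 (SG), and for MMTV-CAF 256 over 8 (WT) and 289 over 8 (SG). The wound-healing line had 197 over 11 summits (WT) and 104 over 5 (SG). Bgn stood between the 90.5 and the 97.8 percentile of all genes in 6 libraries and at 78.9 in wound-healing SG. A site 0.563 kb past its first start was called in all 7 libraries, and sites 7210 and 6522 bp upstream in 6 each. The start of Atp2b3 also lies in this window.

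Among the genes with H3K27ac in every library, Vcan had 2 or 3 summits, all near its starts. Their sum was 73.8 (WT), 16.8 (KI) and 56.9 (SG) for MEF, 73.4 (WT) and 110 (SG) for MMTV-CAF, and 25.1 (WT) and 28.6 (SG) for the wound-healing line. Per 10 kb of window, the scale on which genes of different length can be compared, Vcan held 0.187 summits in 6 libraries while Bgn held 1.55 to 3.40. Omd had 5 to 7 summits in MEF and MMTV-CAF and 3 in each wound-healing library. Its sum was 162 (WT), 97.7 (KI) and 97.9 (SG) for MEF, 144 (WT) and 203 (SG) for MMTV-CAF, and 36.0 (WT) and 65.8 (SG) for the wound-healing line. Among all genes of the same library, Omd stood at the 90.7 percentile in MEF WT, at 97.1 in MEF KI and at 66.4 in MEF SG. The sites lay from 6290 bp before to 4428 bp after the Omd start, and 2 of its 9 sites were called in all 7 libraries.

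Prelp had 7 summits with a sum of 131 in MEF WT, none in MEF KI and 5 with 121 in MEF SG. MMTV-CAF had 7 with 157 in WT and 4 with 189 in SG, and wound-healing fibroblasts 4 with 68.1 and 3 with 77.5. The strongest site of this window was not at the Prelp start but 12.6 kb past it, beyond the 3' end, with 40.4 to 77.6 in the 6 libraries other than MEF KI. It is close to Optc, a neighbouring gene of the same family, whose start the MMTV-CAF WT H3K4me3 region there covered. At the Prelp start itself, sites within 0.5 kb were called in MEF WT, MEF SG and MMTV-CAF WT, while MMTV-CAF SG had a site of 61.4 at 3.40 kb that no other library had.

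Aspn had H3K27ac in MEF WT and the MMTV-CAF libraries only, and Ogn in 5 of 7 libraries. Aspn had 5 summits with a sum of 61.7 in MEF WT, 2 with 20.7 in MMTV-CAF WT, 2 with 23.8 in the SG line (1 of them shared with the Omd window), and no summit in the other 4 libraries. The MEF WT summits all lay in introns, 1.39 to 4.92 kb past the start, and an H3K4me3 region of 979 bp began 1169 bp past it, where neither other MEF library had one. For MEF, Ogn had 3 summits with 33.9 (WT), 1 with 10.9 (KI) and none (SG). For MMTV-CAF it had 1 with 9.91 (WT) and 2 with 20.5 (SG), and for the wound-healing line none (WT) and 2 with 19.4 (SG).

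Lum and Fmod were nearly bare. Lum encodes lumican, a keratan sulphate proteoglycan of cornea and skin, at chr10:97028135-97035337, and had 1 summit of 6.50 in MEF WT and 2 in each MMTV-CAF library (sums 24.3 in WT and 23.3 in SG), all 8942 to 16989 bp from its start. Fmod encodes fibromodulin, which guides collagen cross-linking in tendon, at chr1:135933831-135944854, and had 1 summit of 24.0 in MMTV-CAF WT and 2 with 32.6 in MMTV-CAF SG, all in an intron. No other library had a summit in either window.

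**Figure D3:**
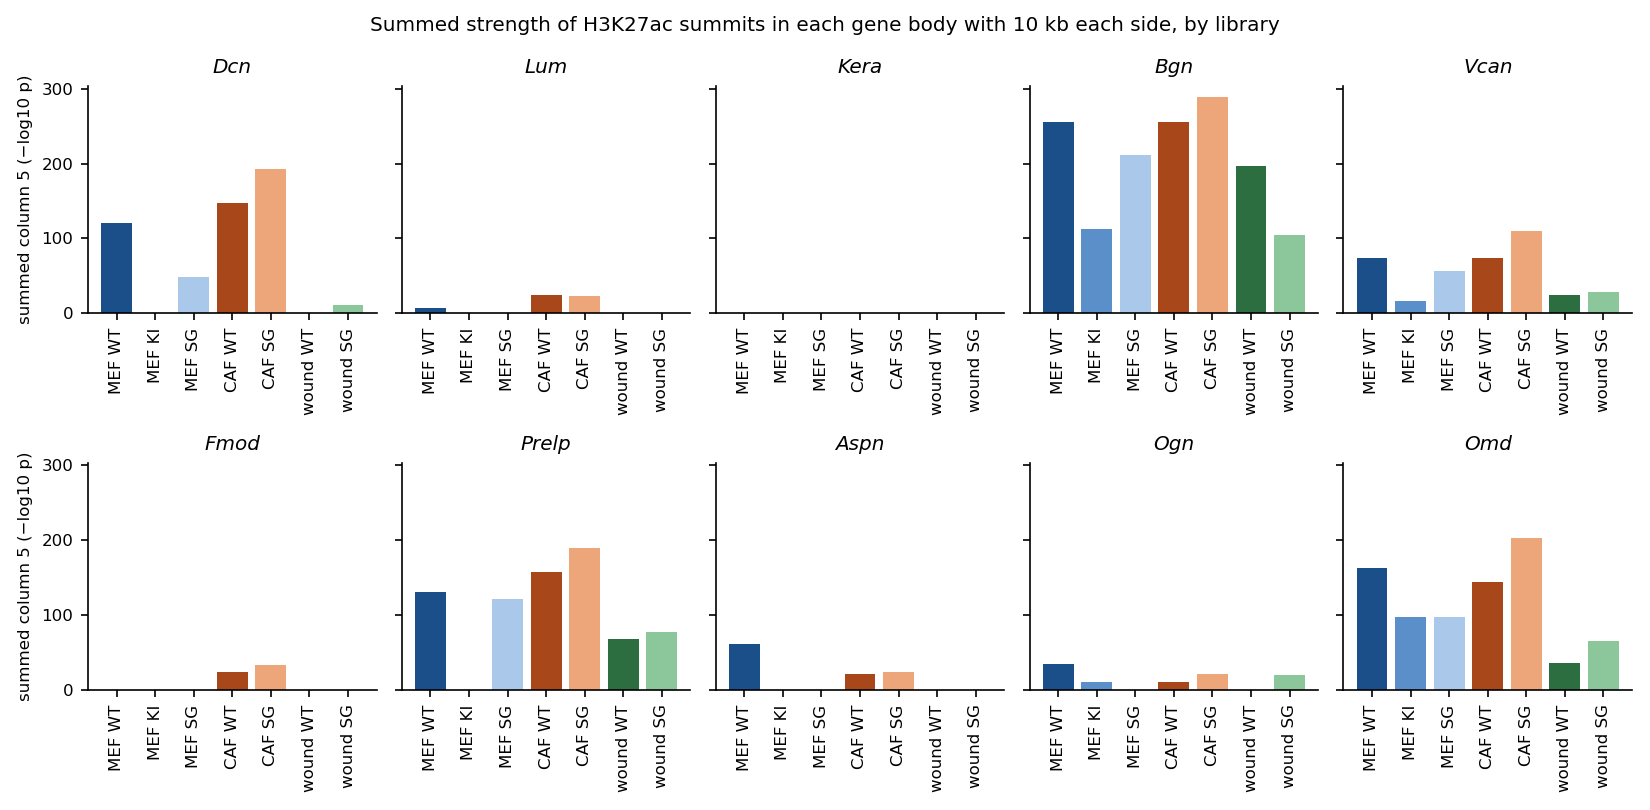
Sum of -log10 p over the H3K27ac summits in each gene's body with 10 kb on each side, with 1 bar per library (no replicates, so no error bars). Bgn has the highest bar in each of the 7 libraries and reaches 289, Dcn and Prelp have no bar in MEF KI, and Kera has none at all.

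Summits of the 7 libraries within 500 bp of each other were chained into sites, which gave 61 different H3K27ac sites in the windows. Of these, 4 were called in all 7 libraries (10.6% of all 100984 sites of the genome were) and 22 in 1 library (42.1%). The 4 shared sites lay at Bgn, at Vcan and, as a pair, at Omd. MEF had 35 of the 61 sites in WT, 15 in KI and 21 in SG, MMTV-CAF had 35 (WT) and 38 (SG), and the wound-healing line 19 (WT) and 16 (SG). Of the 35 MEF WT sites, 23 were absent from MEF KI (53.9% of all MEF WT sites were), 18 from MEF SG (29.5%) and 15 from both (23.4%). MMTV-CAF SG lacked 12 of the 35 MMTV-CAF WT sites (33.7%), and wound-healing SG lacked 8 of the 19 wound-healing WT sites (27.5%).

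**Figure D4:**
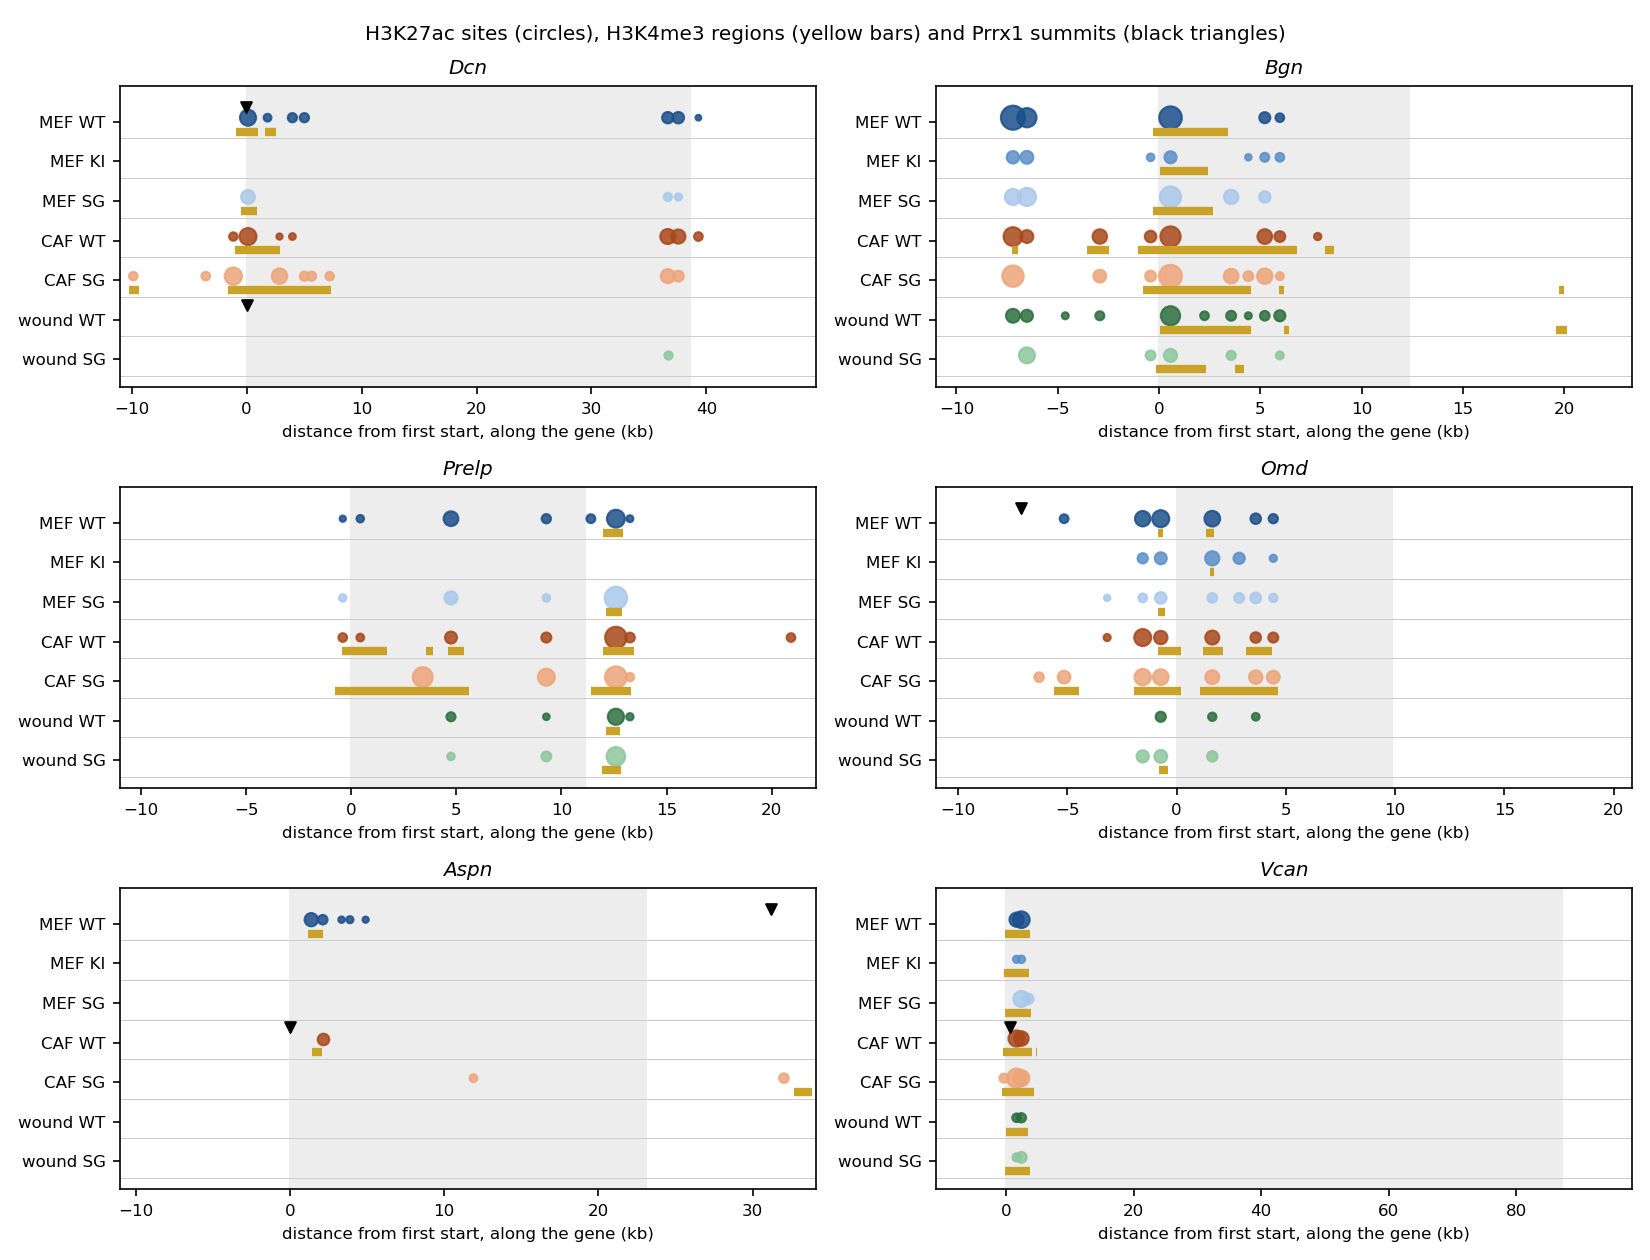
H3K27ac sites of 6 genes (circles, area in proportion to their summed -log10 p), H3K4me3 regions (yellow bars) and Prrx1 summits (black triangles, WT libraries only) by library, plotted by distance in kb from the first start along each gene, with the gene body in grey (CAF is MMTV-CAF, wound the wound-healing fibroblasts). The Dcn row is empty in MEF KI and nearly so in wound-healing fibroblasts, the Aspn intron sites appear in MEF WT, and the Vcan marks stay in one place near the start in all 7 libraries.

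The comparison of KI and SG with WT libraries, called deleted here after the study's design, asks how the marks at these genes stood where Prrx1 was targeted. Loss of the Prrx1 protein is not measured in these data. For H3K27ac the log2 ratio of window sums was taken with 5 added to each sum and centred on the median of all genes, and a gene was called past 1 in either direction, that is 2 times. That median was -1.62 for MEF KI and 0.48 for MEF SG, with 0.25 for MMTV-CAF and 0.59 for the wound-healing line. In MEF SG, 5 of the 8 genes with H3K27ac were lower (6.35% of all genes) and 0 higher (6.56%), with a median of -1.43 over the 8. In MEF KI, 3 of 8 were lower (13.9%) and 0 higher (11.2%), with a median of 0.04. In MMTV-CAF SG, 0 of 9 were lower (6.44%) and 0 higher (10.9%), with a median of 0.13. In wound-healing SG, 1 of 6 was lower (4.55%) and 2 higher (10.0%), with a median of -0.11. The windows of Aspn, Omd and Ogn overlap in part, so these 3 genes are not independent of each other.

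Aspn and Dcn were called lower in both MEF comparisons, which share the WT library. The share of all genes called lower in both was not counted. Aspn had a centred log2 ratio of -2.12 in MEF KI and -4.22 in MEF SG, where all 5 WT summits were missing. Dcn had -3.04 in MEF KI, where all 7 were missing, and -1.73 in MEF SG, where the site at the start and both main sites of the 3' group were still called. MEF SG was also lower at Lum (-1.68, a single WT summit), Ogn (-3.44) and Omd (-1.18), and MEF KI at Prelp (-3.14). The other MEF comparison did not share these calls: MEF KI had 0.41 at Lum, 0.32 at Ogn and 0.91 at Omd, and MEF SG -0.58 at Prelp. With the gene body alone, MEF KI had 1.41 at Omd and -1.05 at Ogn, and MEF SG -1.11 at Prelp. With lists cut to equal size, MEF KI had 1.07 at Ogn. Bgn and Vcan stayed within 2 times in both, at 0.46 and -0.23 in MEF KI and at -0.74 and -0.83 in MEF SG. Dcn and Prelp in MEF KI and Aspn in MEF SG stayed past 2 times under each of the 6 alternatives, while Aspn in MEF KI had -0.87 with a constant of 20 and 0.42 with 50 kb on each side, and Dcn in MEF SG -0.68 by number of summits. The other MEF SG calls were each lost somewhere: Lum had -0.81 with a constant of 20 and lay at the limit by number of summits, Ogn -0.85 with 50 kb, and Omd -0.70 without centring, -0.73 with the gene body alone and 0.19 by number of summits. Without the centring, 7 of 8 genes were lower in MEF KI, all but Omd (78.8% of all genes), and 4 of 8 in MEF SG (3.55%).

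Since the MEF KI list is weak as a whole, complete absence was set beside that of all genes. MEF KI lacked H3K27ac at 4 of the 8 genes that had it in MEF WT (17.0% of all genes lost it), namely Dcn, Lum, Prelp and Aspn, and MEF SG lacked it at 3 of 8 (2.40%), namely Lum, Ogn and Aspn. Genes were then taken whose MEF WT sum lay within 2.5 percentile points of the gene in question, a reading added after the values were seen. Of the 1110 genes with a MEF WT sum like that of Dcn, 3.06% had no summit in MEF KI, and of the 1109 like Prelp 3.07%. Of the 1111 genes like Aspn, 12.9% had none in MEF KI and 0.630% none in MEF SG. For Ogn, 2.43% of 1110 such genes had none in MEF SG. The Lum value carries little, since 77.2% of the 591 genes with a sum as low as that of Lum had none in MEF KI and 25.0% none in MEF SG. With 50 kb on each side, a window that reaches the 3' end of Dcn, the Lum log2 ratio was -2.74 in MEF KI and -2.59 in MEF SG.

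In MMTV-CAF no gene of the set passed 2 times in either direction: Dcn had a centred log2 ratio of 0.14, Aspn -0.09, Prelp 0.01, Bgn -0.08, Omd 0.23, Fmod 0.13, Vcan 0.30, Lum -0.30 and Ogn 0.52. With the gene body alone, Ogn (-1.82) and Aspn (-1.07) were lower there. In wound-healing fibroblasts Bgn was lower (-1.48), with 11 summits in WT and 5 in SG, and 2.31% of the 1040 genes with a WT sum like that of Bgn had an SG sum as low or lower. Without the centring the Bgn ratio was -0.89. Dcn (1.04) and Ogn (1.70) were higher there, from none in WT to 1 and 2 weak summits in SG. With 20 added to each sum in place of 5, these ratios were 0.14 for Dcn and 0.51 for Ogn, and Ogn had 0.60 with 50 kb on each side and 0.99 with the gene body alone. Dcn had 2.99 with 50 kb on each side and 1.07 with the gene body alone. By number of summits, Bgn and Dcn lay at the limit and not past it.

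H3K4me3 width was compared where both libraries had a region over a start, again centred on all genes, with a call past 1.5 times. In MMTV-CAF SG, 4 of the 6 genes with a region were wider (5.60% of all genes) and 0 narrower (4.81%). The wider ones were Prelp with a log2 ratio of 1.63, Dcn with 1.25, Omd with 1.14 and Ogn with 0.66, while Vcan had 0.21 and Bgn -0.50. At Prelp the single SG region of 6372 bp spans a stretch where WT had 3 separate regions, of 2131, 333 and 761 bp. Fold enrichment at those genes was also above that of WT: 7.51 against 3.01 at Prelp, 5.85 against 3.28 at Dcn, 4.52 against 2.73 at Omd and 4.96 against 3.79 at Ogn. The MMTV-CAF SG list had more regions than the WT list (29166 and 27339) and a higher median -log10 p (8.72 and 7.51), and the part of this in the widths was not tested. Over all genes with a region over a start, the median width was 2860 bp in MMTV-CAF SG and 3037 bp in WT. When every list was cut to its 13125 strongest regions, 2 of the 10 genes (Bgn and Vcan) had a region in both MMTV-CAF libraries, and neither was wider.

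In the other comparisons fewer genes could be read. In wound-healing SG, 1 of 2 genes was narrower (3.28% of all genes), Bgn with -1.03, and Vcan had -0.10. In MEF SG the ratios were -0.38 for Dcn, -0.23 for Bgn and 0.12 for Vcan. In MEF KI only Vcan had a region over a start in both libraries (0.29). Broad regions over 4 kb, the size the study uses for broad H3K4me3, were found at Vcan in MEF WT and MEF SG, at Bgn and Vcan in MMTV-CAF WT, at Dcn, Bgn, Vcan and Prelp in MMTV-CAF SG and at Bgn in wound-healing WT, while 1.48% to 15.2% of all genes had one, by library.

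**Figure D5:**
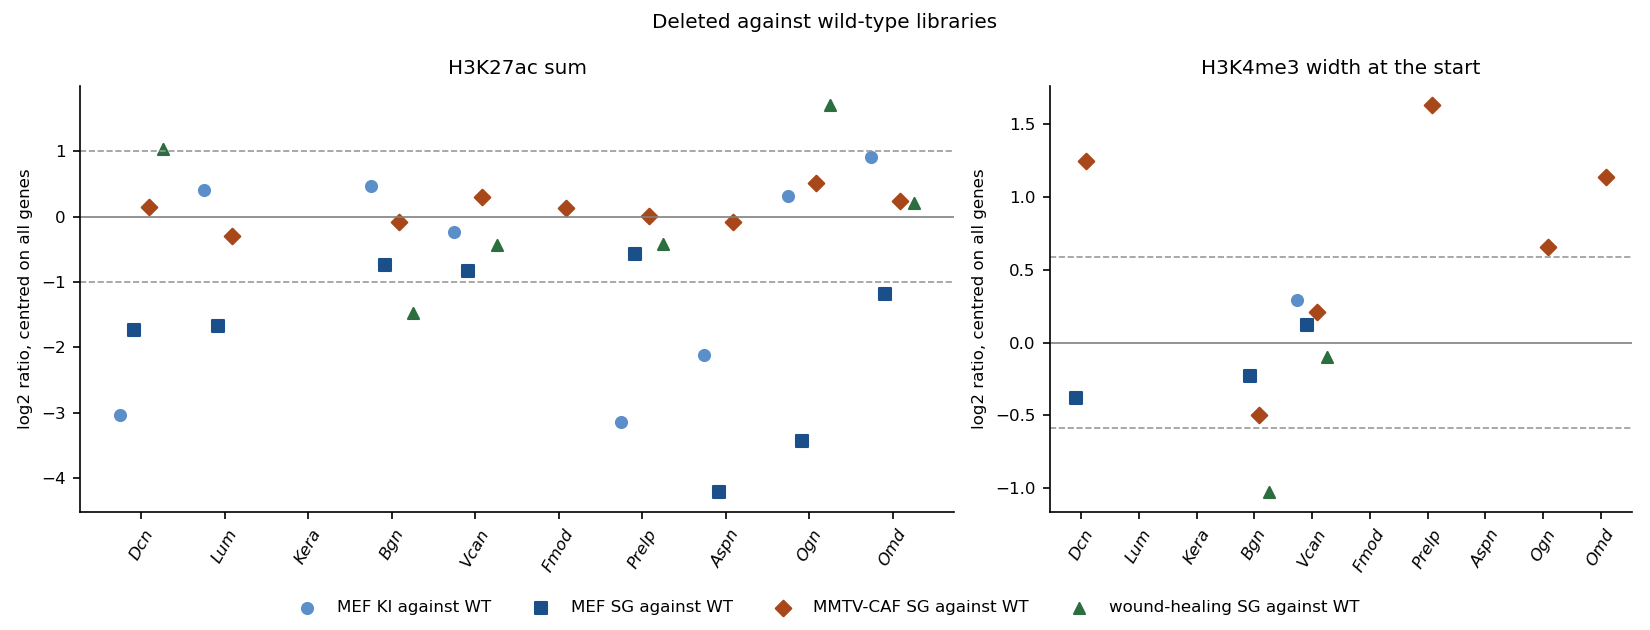
Centred log2 ratio of each deleted library to its WT library for the H3K27ac window sum (left) and the H3K4me3 width at the start (right), with dashed lines at the call limits of 2 times and 1.5 times. The dark blue squares (MEF SG) sit below 0 at all 8 genes with H3K27ac, the orange diamonds (MMTV-CAF SG) stay near 0 for H3K27ac but above the limit for H3K4me3 at Dcn, Prelp, Ogn and Omd.

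The wild-type fibroblast types were compared in the same way. Against MEF WT, 4 of 8 genes were lower in wound-healing WT (12.4% of all genes), namely Dcn, Ogn, Aspn and Omd, and 0 higher (5.95%). Dcn, Ogn and Aspn had no summit there. MMTV-CAF WT against wound-healing WT was higher at 4 of 9 genes (11.8%), namely Dcn, Lum, Fmod and Aspn, and lower at 0 (7.30%), and without the centring 8 of 9 were higher (41.2%). MMTV-CAF WT against MEF WT was lower at 2 of 9 (10.4%), Ogn and Aspn, and higher at 2 (10.1%), Lum and Fmod. With 50 kb on each side, 0 genes were called either way between MMTV-CAF and MEF, and the Fmod ratio against wound-healing WT was -0.45. For H3K4me3 width, MMTV-CAF WT was wider than MEF WT at 2 of 3 genes (8.90% of all genes), Dcn with a log2 ratio of 0.59 and Bgn with 0.68, and wider than wound-healing WT at 1 of 3 (9.27%), Ogn with 1.64.

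Clusters of H3K27ac summits, stitched across the default gap of the study's super-enhancer tool and ranked by summed -log10 p as an approximation to super-enhancers, reached Bgn in every library. The Bgn cluster ranked 80 (WT), 155 (KI) and 184 (SG) for MEF, 225 (WT) and 287 (SG) for MMTV-CAF, and 100 (WT) and 795 (SG) for the wound-healing line, each time above the slope-1 point of the rank curve. It spanned 24.9 to 33.2 kb and included the Prrx1 site upstream of the gene. Omd reached that class in MEF WT (rank 1161) and MEF KI (rank 473), and Prelp in MMTV-CAF WT (rank 231), as part of a cluster of 62.3 kb that runs past the gene. No other gene of the set did in any library, and 4.07% to 11.9% of all genes did, by library.

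The other lists give the surroundings of the pathway. The set closest in kind, 8 other leucine-rich proteoglycans, had 5 genes with H3K27ac in the MEF SG comparison, with 0 lower and 0 higher and a median of 0.08. In MEF KI they had 1 lower and 1 higher of 5 with a median of -0.68, below the 0.04 of the set described here, and in MMTV-CAF SG 0 lower and 2 higher of 6, and in wound-healing SG 1 lower and 1 higher of 5. Of the 7 other hyalectans and link proteins, all 3 with H3K27ac were higher in MEF SG, while MMTV-CAF SG had 2 lower and 1 higher of 5, and Bcan, brevican, had 1.54 in the first and -0.77 in the second. Bcan had 1 summit in MEF WT and 4 in MEF SG, while the other 2 of the 3 had none in MEF WT and 1 and 2 in MEF SG. The 22 enzymes that build chondroitin and dermatan chains had 2 lower and 4 higher of 20 in MEF SG, with a median of 0.15, and the 11 fibrillar collagens 1 lower and 1 higher of 10, with a median of -0.49. Among all 48 genes of the other lists, Chst3, a chondroitin 6-O-sulphotransferase, was the 1 gene called the same way in 3 of 4 comparisons: its log2 ratio was 3.55 (KI) and 2.48 (SG) for MEF and 2.19 for MMTV-CAF SG, while wound-healing SG had 0.93. Its summits numbered 1 (WT), 4 (KI) and 5 (SG) for MEF, 2 (WT) and 8 (SG) for MMTV-CAF, and 1 (WT) and 4 (SG) for the wound-healing line.

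For the 6 genes with H3K27ac in at least 4 libraries, the gene elsewhere in the genome with the closest percentile in all 7 libraries was found, as a description of these libraries. It was Etv1 for Dcn (mean absolute difference of 7.21 percentile points), Deptor for Bgn (2.10), Man2b2 for Vcan (3.02), Lama3 for Ogn (2.40), Gins1 for Prelp (4.61) and Col5a2 for Omd (4.40). The Dcn pattern was thus the least closely matched of the 6.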

How the data were processed

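ChIP-seq of H3K27ac, H3K4me3 and Prrx1 was deposited as 17 peak lists, and 7 inputs have no list here. Before deposit the authors used Trimmomatic for trimming, Bowtie for alignment (mm9) and MACS2 for peak calling over each line's input, narrow for H3K27ac and Prrx1 and broad for H3K4me3. For Prrx1 the methods also name duplicates and an IgG control, and whether either entered the deposited lists is not given in the sources used here. The deposited values are -log10 p per summit or region and, for H3K4me3, the ratio (fold enrichment) over input. The deposited H3K4me3 score column and -log10 q-values, both from the caller, were not used.

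Windows came from GENCODE vM1 (NCBIM37, the assembly of mm9), and sequences from the NCBIM37 genome. The sequence before the Dcn start is not reported here. Member genes and gene lists were chosen with earlier results of these data known. Named genes are all members, other-list genes called alike in at least 3 of 4 deletion comparisons, up to 4 examples per other list with the largest MEF WT sum (Bcan is one), and the closest gene per member. Optc, Epyc, Atp2b3 and Cenpp are named as neighbours. Each group has 1 library, and no test was run. A fit of SG against WT blocked by fibroblast type, over the 3 pairs, was not run either. Scripts ran in Python 3.11.15 with numpy 2.4.6 and pandas 2.3.3, and were tested on simulated data. Alternatives covered window, strength minimum, list size, constant, centring and stitching.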

Additional observations from a re-analysis of the deposited data

Results flagged for a closer look

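Of the H3K27ac window sums in the SG libraries against WT, those of Dcn and Ogn moved past 2 times in opposite directions in different fibroblast types, and the difference between types was not tested. Dcn had a centred log2 ratio of -1.73 in MEF SG against WT and 1.04 in wound-healing SG against WT. Ogn had -3.44 in MEF SG against WT and 1.70 in wound-healing SG against WT. Both wound-healing values rest on windows without a summit in WT, with sums of 10.5 for Dcn and 19.4 for Ogn in SG. With a constant of 20 the wound-healing ratios were 0.14 for Dcn and 0.51 for Ogn, and with 50 kb on each side Ogn had 0.60 and Dcn 2.99. In MEF SG, Dcn had -0.68 by number of summits and Ogn -0.85 with 50 kb.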

How the results depend on the processing

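No analysis paired by fibroblast type was run. Of the counts recomputed under the alternatives, 89 stayed within 1.5 times and 26 moved. H3K4me3 over starts numbered 16 pairs of a gene and a library, in place of 25, when regions under a -log10 p of 10 were dropped. Prrx1 pairs numbered 3 with the body alone, 16 with 50 kb and 1 under the same strength limit. After deletion, H3K27ac counts changed as follows. Without centring, MEF KI had 7 lower and wound-healing SG 0 lower. With a constant of 20, wound-healing SG had 0 higher. With the body alone, MEF KI had 1 higher (Omd, 1.41), MMTV-CAF SG 2 lower and wound-healing SG 1 higher. With 50 kb, MMTV-CAF SG had 1 lower, and the Aspn ratio in MEF KI reversed to 0.42. In equal-size lists, MEF KI had 1 higher (Ogn, 1.07) and wound-healing SG 0 higher. By number of summits, MEF SG had 2 lower, wound-healing SG 0 lower and 1 higher, and the Omd ratio in MEF SG reversed to 0.19. H3K4me3 width was higher at 1 gene in MEF KI and 1 in wound-healing SG with regions within 1 kb, and at 0 in MMTV-CAF SG in equal-size lists. Between types, MMTV-CAF against MEF had 0 lower and 0 higher with 50 kb (Fmod -0.02) and 1 higher in equal-size lists. MMTV-CAF against wound-healing had 8 higher without centring, and Fmod was -0.45 with 50 kb. For H3K4me3, MMTV-CAF was wider than wound-healing at 2 genes without centring and 0 in equal-size lists, and wider than MEF at 1 in equal-size lists. The causes were not tested. A list records what passed its threshold, so an absent summit is not an absent mark, and depth, unknown here, limits both.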
